A study of Homo sapiens with 24 samples.

Results

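The genes described here are 10 negative feedback regulators of mitogen-activated protein kinase (MAPK) signalling: DUSP1, DUSP4, DUSP5, DUSP6, DUSP8, DUSP10, SPRY2, SPRY4, SPRED1 and SPRED2. They were taken by name from 28277 genes in each of 2 tables of RNA-seq read counts, and all 10 had enough counts to be tested in both, among 15882 genes in one table and 17020 in the other. The cells were PEO1 and PEO4, established lines of human ovarian adenocarcinoma that were derived from 1 patient before (PEO1) and after (PEO4) resistance to cisplatin had developed. The A pair consisted of untreated PEO1 (PEO1 A), which lacks BRCA2 function and is given as WT in the labels, and untreated PEO4 (PEO4 A), also WT in the labels, whose BRCA2 reading frame is restored by a reversion. The B pair consisted of PEO1 BRCA+ (PEO1 B, genotype BRCA2+), a PEO1 line that regained BRCA2 by a spontaneous reversion, and WT PEO4 (PEO4 B), each either untreated or incubated with 5 µM pyridostatin (PDS) for 2 h or 6 h. PDS is a small molecule that binds G-quadruplexes (G4s), the folded structures of guanine-rich DNA. The labels name no vehicle for the untreated cells. Each of the 8 conditions had 3 replicates, which the series calls biological, so that p-values measure the spread between such samples of 1 line.

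The MAPKs ERK, JNK and p38 are switched on by phosphorylation, and the dual-specificity phosphatases (DUSPs) switch them off by removing the phosphates. DUSP1, DUSP4 and DUSP5 act in the nucleus, DUSP6 acts on ERK in the cytoplasm, and DUSP8 and DUSP10 act mainly on JNK and p38. Sprouty proteins (SPRY2, SPRY4) and SPRED proteins (SPRED1, SPRED2) hold back the path from growth factor receptors through Ras to ERK, and SPRED proteins do so by bringing neurofibromin, a Ras inactivator, to the membrane. Many of these genes are themselves transcribed in response to ERK activity, which closes the feedback loop, and their mRNAs are often short-lived.

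Library totals over all genes lay between 32528913 and 63882077 counts in the A pair, between 18699929 and 22375644 in the 6 untreated libraries of the B pair, and between 33260167 and 43713947 in its 12 treated libraries. The share of counts on ribosomal RNA genes also separated untreated from treated B libraries, at 0.217% to 0.473% against 0.0161% to 0.0367%. These differences run together with PDS and cannot be told apart from it, and they do not apply between 2 h and 6 h. Of 9 ovarian carcinoma markers, 8 were expressed in every condition, with a summed level between 4270 and 14000 CPM (counts relative to the library total), while SOX17 was at 0.308 CPM or less in every library. Of the markers of other cell types, CD3E (T cells) had no count in any library, PTPRC (leukocytes) was at 0.0418 CPM or less and CDH5 (endothelium) at 0.315 CPM or less. The other endothelial markers, PECAM1 and VWF, reached 1.98 and 1.22 CPM. The endothelial sum in PEO4 B was 1.31 to 2.72 CPM untreated, 0.408 to 0.764 CPM at 2 h and 0.061 to 0.191 CPM at 6 h. Mesothelial markers summed to between 22.5 and 105 CPM and leukocyte markers to between 23 and 78.4 CPM, with 3 of 4 leukocyte markers below 1 CPM in every condition. Fibroblast markers summed to at most 36.9 CPM. In PEO4 B the fibroblast sum was 29.7 to 31 CPM untreated, 8.47 to 12.2 CPM at 2 h and 3.29 to 4.49 CPM at 6 h. The mesothelial sum was 55.2 to 90.1, 22.5 to 24.5 and 26.7 to 27.5 CPM there, in which the mean of UPK3B went from 72.1 to 10.6 and 7.02 CPM while those of CALB2 (0.206, 7.3 and 2.17 CPM) and LRRN4 (2.01, 5.77 and 17.9 CPM) were higher after PDS. The leukocyte sum, nearly all of it CD68, was 32.2 to 54.5 CPM untreated, 67.5 to 78.4 CPM at 2 h and 68 to 78 CPM at 6 h. The part of these lists in the results below was not tested. In such bulk RNA a change in the number of expressing cells cannot be told apart from a change per cell. Replicate 3 of untreated PEO4 B lay apart from replicates 1 and 2 for several of the genes below, and the values without it are given with them.

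CPM scaled by the trimmed mean of M-values (TMM) is used as the level of a gene within a table. The 2 tables were scaled separately, so levels are compared only within a pair. To compare genes with each other, CPM was divided by the total exon length of the gene in kilobases. On this scale DUSP1 had the highest mean of the 10 in untreated cells of all 4 lines, at 23 in PEO1 A, 21.7 in PEO4 A, 51.5 in PEO1 B and 156 in PEO4 B (CPM per kilobase). DUSP8 had the lowest, at 0.0724, 0.0584, 0.278 and 0.145. DUSP5, SPRED1 and SPRED2 lay in the upper part of the order in all 4, between 9.56 and 48.3 CPM per kilobase. The position of DUSP4 differed most between the lines, at 11.4 in PEO1 A against 0.469 in PEO4 A and at 29.3 in PEO1 B against 3.72 in PEO4 B. SPRY2, SPRY4 and DUSP10 were low throughout, between 0.777 and 5.58 CPM per kilobase over the 8 conditions.

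**Figure D1:**
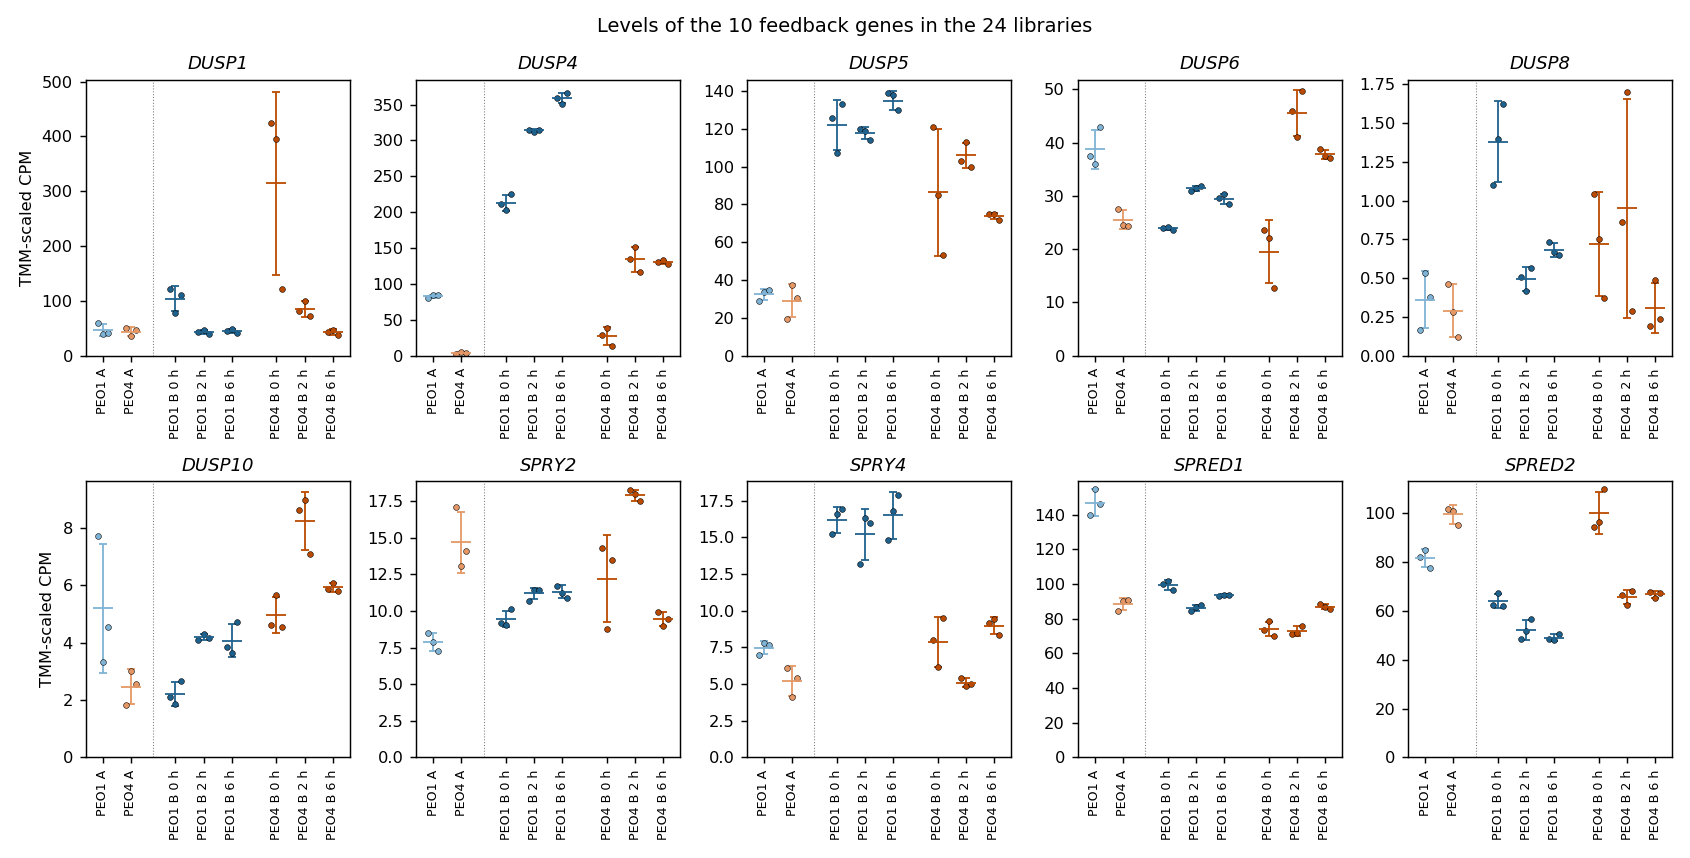
Level of each of the 10 genes (TMM-scaled CPM, linear axis from 0) in the 24 libraries, with points for replicates 1 to 3 from left to right, bars for the mean ± SD and a dotted line between the separately scaled A and B pairs. DUSP4 lies lower in PEO4 than in PEO1 in every pairing of untreated cells, and the 3 untreated PEO4 B libraries of DUSP1 spread from 121 to 424 CPM.

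Promoter sequence was compared for the members in the RefSeq table of 300-base windows, from 250 bases before to 50 bases after each annotated start (build GRCh38.p14). In it 12 windows of 8 members were searched. No window of DUSP4 or DUSP5 was searched, so the motif counts and sequences below do not cover these genes. Both strands were searched for the cAMP response element (CRE), spelled TGACGTCA, and for AP-1 sites, spelled TGANTCA. They were also searched for the GC box, whose letters are GGGCGG, for the CCAAT box that the factor NF-Y binds, for the TATA box in the spelling TATAAA, for the ETS site CCGGAAGT, for the CArG box, and for a G4 pattern of 4 runs of at least 3 G joined by 1 to 7 bases. The letters of the CRE and of AP-1 cannot share bases. The CRE was found in DUSP1 once and in DUSP8 in 2 places, and in no other member searched, while 1.85% of the 35116 windows in the table hold it. AP-1 letters were found in SPRED2 alone, at its second annotated start (7.71% of all windows), and the TATA box in DUSP1 and at that start of SPRED2 (11.5%). CCAAT was found in 4 members, DUSP6, DUSP8, DUSP10 and that start of SPRED2 (34.6%), and the GC box in 7 of the 8 (45%). The percentages are shares of single windows, while a member was counted where any of its windows held the letters. Some members have more than 1 window, so the 2 measures are not alike. No member window that was searched held the ETS letters (4.14%) or the CArG box (1.29%). The G4 pattern was found in DUSP8, 190 to 159 bases before the start, and in SPRY2, 110 to 86 bases before a start, in both as runs of C on the coding strand and in both across a GC box, and 25% of all windows hold it. The 250 bases before the start are shown for the genes whose levels moved most after PDS among those with a window searched, on the minus strand and 5′ to 3′. Capitals mark the CRE and the TATA box in DUSP1 (chr5:172771196-172771445) and the CRE in DUSP8 (chr11:1572272-1572521), both of which fell in PEO1 B. Capitals mark CCAAT, in either orientation, in DUSP6 (chr12:89352502-89352751) and DUSP10 (chr1:221742090-221742339), of which DUSP6 rose in PEO4 B and DUSP10 had higher values after PDS that stayed under the fold threshold. The CCAAT box of DUSP8, 86 to 82 bases before its start, is left in lower case. SPRED2, which also holds CCAAT, had lower values after PDS in both lines, under the fold threshold. A link between these letters and the direction of change was not tested.
DUSP1: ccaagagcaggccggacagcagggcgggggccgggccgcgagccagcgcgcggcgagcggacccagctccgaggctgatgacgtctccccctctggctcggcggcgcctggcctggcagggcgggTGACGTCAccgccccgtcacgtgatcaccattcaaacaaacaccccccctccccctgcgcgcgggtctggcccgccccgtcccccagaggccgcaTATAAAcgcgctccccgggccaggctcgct
DUSP8: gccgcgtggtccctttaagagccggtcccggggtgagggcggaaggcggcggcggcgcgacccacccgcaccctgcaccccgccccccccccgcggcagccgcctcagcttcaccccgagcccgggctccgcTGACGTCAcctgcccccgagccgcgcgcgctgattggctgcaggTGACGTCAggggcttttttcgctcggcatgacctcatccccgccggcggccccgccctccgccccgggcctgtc
DUSP6: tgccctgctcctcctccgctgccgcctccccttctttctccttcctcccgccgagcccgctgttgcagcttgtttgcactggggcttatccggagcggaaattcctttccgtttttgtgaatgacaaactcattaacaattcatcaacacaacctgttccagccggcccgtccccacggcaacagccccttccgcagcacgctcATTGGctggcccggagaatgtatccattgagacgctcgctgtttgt
DUSP10: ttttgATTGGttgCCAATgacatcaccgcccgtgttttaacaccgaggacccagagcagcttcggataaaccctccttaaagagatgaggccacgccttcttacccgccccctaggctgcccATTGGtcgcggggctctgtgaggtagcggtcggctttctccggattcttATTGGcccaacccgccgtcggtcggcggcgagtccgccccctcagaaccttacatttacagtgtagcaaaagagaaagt

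In DUSP1 the CRE lay 125 to 118 bases before the start, between 2 GC boxes, and the TATA box lay 30 to 25 bases before it. In DUSP8 the CREs lay 118 to 111 and 74 to 67 bases before the start, with no TATA box. These are matches of letters and were not tested for binding.

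Expression was compared between the lines first. Every p-value below comes from the quasi-likelihood test of edgeR, adjusted by Benjamini and Hochberg's method across the tested genes of the table. A gene counted as called where that adjusted p was below 0.05 and its level differed by more than 1 on the log2 scale in either direction. Between PEO4 A and PEO1 A, 2 of the 10 genes were called, DUSP4 and DUSP10, both lower in PEO4, against 25.8% of all tested genes called. Between untreated PEO4 B and PEO1 B, 4 were called, with DUSP1 and DUSP10 higher and DUSP4 and SPRY4 lower in PEO4, against 24.8% of all genes. At 2 h of PDS 2 were called, DUSP4 and SPRY4, both lower in PEO4 (26.5% of all genes), and at 6 h 2 were called, DUSP4 and DUSP8, both lower in PEO4 (23.0% of all genes). The median log2 difference over the 10 genes was -0.36 in the A pair and -0.36, 0.43 and -0.18 in the B pair at 0 h, 2 h and 6 h, while that over all tested genes was -0.006, -0.001, 0.021 and -0.003. DUSP4 was called lower in PEO4 in each of these 4 comparisons. With the fold threshold dropped, 7 of the 10 passed in the A pair, where 61.6% of all genes did, and 8 at 0 h, 2 h and 6 h in the B pair, where 68.6%, 72.9% and 68.6% of all genes did.

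**Figure D2:**
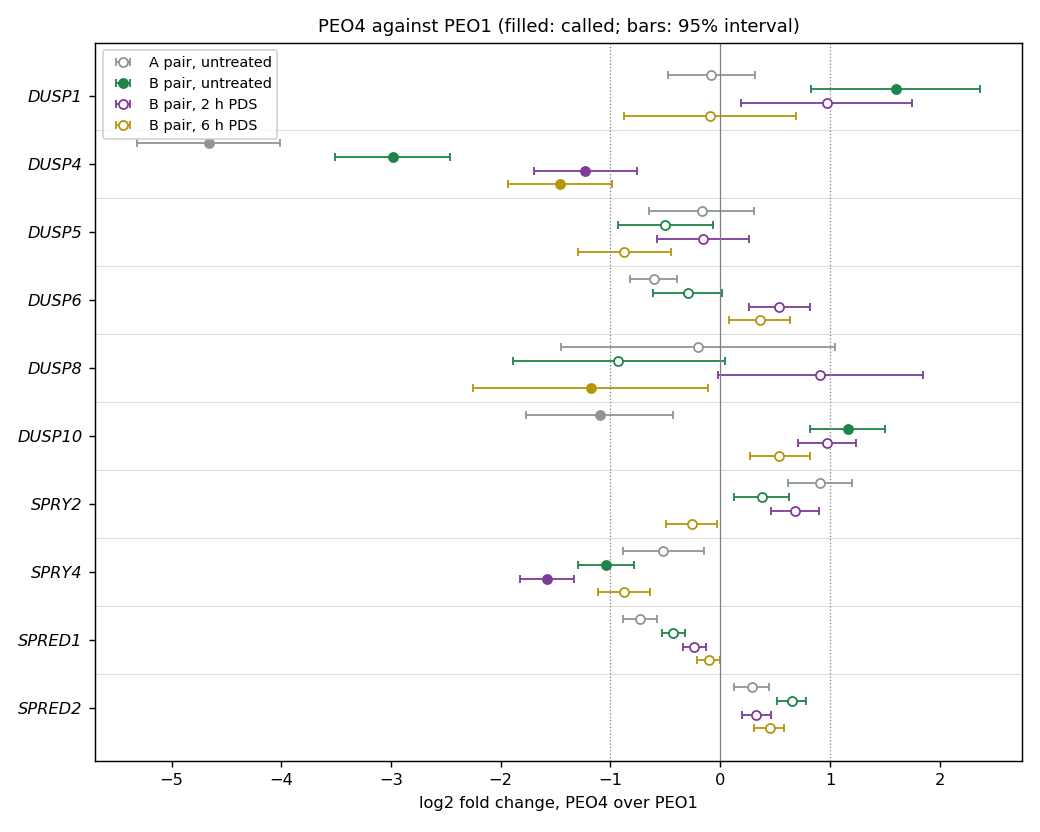
Log2 fold change of PEO4 over PEO1 for each gene (x axis, with dotted lines at -1 and 1) in the A pair and in the B pair at 0 h, 2 h and 6 h of PDS, with 95% intervals as bars and filled points for called differences. DUSP4 lies to the left of -1 in all 4 comparisons, and DUSP10 lies at -1.10 in the A pair and at 1.16 in untreated cells of the B pair.

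Expression after PDS was then compared with that in untreated cells of the same line. In PEO1 B, 2 of the 10 genes were called at 2 h, DUSP1 and DUSP8, both lower (7.57% of all tested genes were called), and 1 at 6 h, DUSP1 (8.13% of all genes). In PEO4 B, 3 were called at 2 h, with DUSP4 and DUSP6 higher and DUSP1 lower (17.4% of all genes), and 3 at 6 h, with DUSP4 higher and DUSP1 and DUSP8 lower (22.6% of all genes). From 2 h to 6 h no member was called in PEO1 B (0.170% of all genes), where DESeq2's Wald test also called none. No member had an adjusted p under 0.05 there in the main edgeR fit. Among the other settings tried, DUSP4 and DUSP5 could pass that p, with log2 differences of 0.19 and 0.20 in the main fit and no overlap of libraries. In PEO4 B DUSP8 alone was called, lower at 6 h (12% of all genes). With the fold threshold dropped, 7 and 4 members passed in PEO1 B at 2 h and 6 h (52.6% and 53.0% of all genes), none from 2 h to 6 h (6.94%), and 7 in each comparison of PEO4 B (65.3% at 2 h, 69.8% at 6 h and 60.1% from 2 h to 6 h). Over the members, log2 fold changes had a median of -0.08 and 0.08 in PEO1 B and 0.32 and -0.02 in PEO4 B at 2 h and 6 h, against -0.025, -0.027, 0 and -0.028 over all genes. Comparisons of 2 h and of 6 h with untreated cells share the untreated libraries of that line, and the untreated comparison between the B lines uses them too. Scaling by library totals instead of TMM moved the median of all genes after PDS down by between 0.128 and 0.16 on the log2 scale, and changed the direction of no called member. In PEO4 B at 6 h it moved the genes called from 1066 higher and 2782 lower to 698 higher and 3334 lower.

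**Figure D3:**
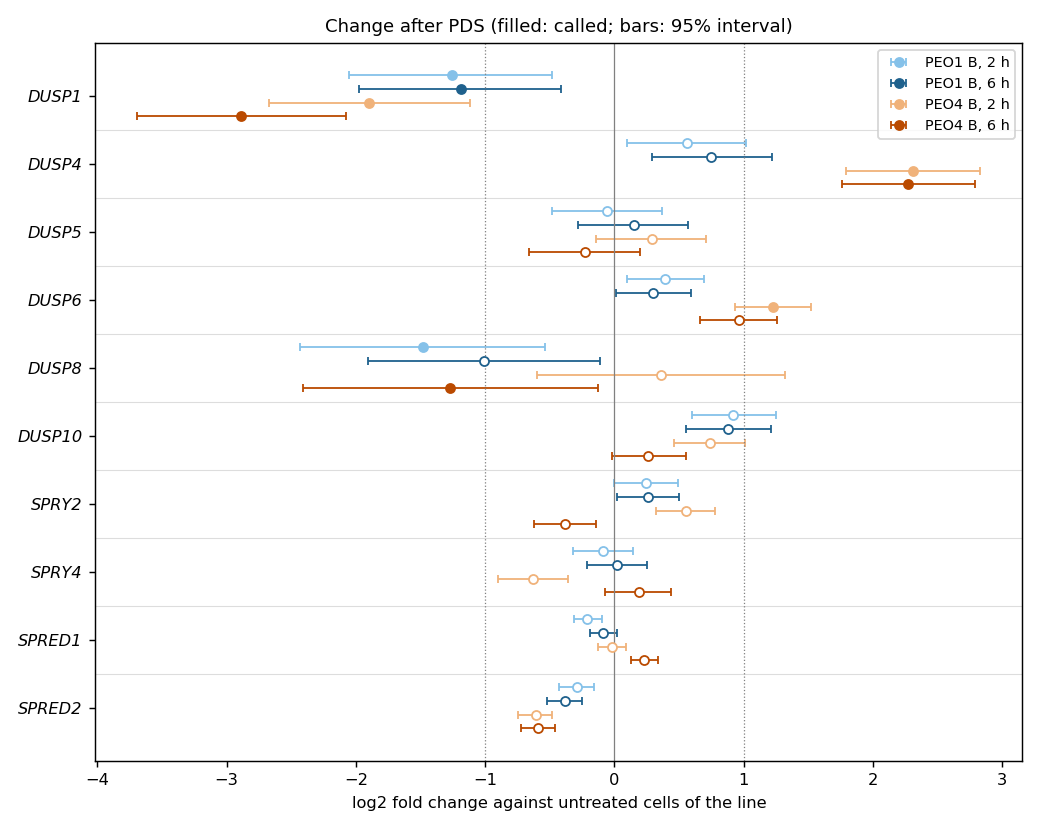
Log2 fold change after PDS against untreated cells of the same line for each gene (x axis, with dotted lines at -1 and 1) at 2 h and 6 h in PEO1 B and PEO4 B, with 95% intervals as bars and filled points for called changes. DUSP1 lies to the left of -1 in all 4 comparisons, and DUSP4 lies above 2 in PEO4 B and between 0.56 and 0.75 in PEO1 B.

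DUSP1 (chromosome 5, 172768096 to 172771195 in GRCh38) encodes an inducible nuclear phosphatase of p38, JNK and ERK, and it was lower after PDS in both lines. In untreated PEO1 B its level was 122, 77.2 and 111 CPM in replicates 1 to 3, and after PDS it was 43.6, 45.8 and 39.7 CPM at 2 h and 45.4, 48.9 and 41.7 CPM at 6 h. In PEO4 B it was 424, 396 and 121 CPM untreated, 81.4, 100 and 71.6 CPM at 2 h and 43, 47.5 and 36.8 CPM at 6 h. Treated and untreated libraries did not overlap in either line. The log2 fold change was -1.26 (SE 0.362, adjusted p = 0.0105) at 2 h and -1.19 (SE 0.361, adjusted p = 0.0141) at 6 h in PEO1 B, and -1.90 (SE 0.355, adjusted p = 0.000401) and -2.89 (SE 0.372, adjusted p = 1.25e-05) in PEO4 B. Thus PEO1 B was at its lower level by 2 h, with a log2 difference of 0.07 from 2 h to 6 h (95% interval -0.71 to 0.86), and PEO4 B had a further log2 difference of -0.99 (adjusted p = 0.03), just short of the fold threshold and past it with library totals (-1.02) or upper-quartile scaling (-1.04). The untreated lines differed by a log2 fold change of 1.60 (SE 0.355, adjusted p = 0.00132), but their libraries overlapped, since replicate 3 of PEO4 B was at 121 CPM and replicate 1 of PEO1 B at 122 CPM. Without replicate 3 of PEO4 B this difference was 1.99 and the changes at 2 h and 6 h were -2.28 and -3.27, and in a fit of the untreated libraries alone the adjusted p was 0.0616. Without replicate 1 of untreated PEO1 B the change of PEO1 B at 6 h lost its call (adjusted p = 0.0503). At 6 h the libraries of the lines overlapped, with a log2 difference of -0.09 (95% interval -0.88 to 0.69). In the A pair the level was 58.6, 39.6 and 40.8 CPM in PEO1 and 50, 35.2 and 46.1 CPM in PEO4, which overlapped (log2 difference -0.08, 95% interval -0.48 to 0.32).

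DUSP4 (chromosome 8, 29333064 to 29350684), a nuclear phosphatase of ERK and JNK that ERK induces, was the member with the largest difference between the untreated lines in both pairs. It was at 80, 84.1 and 84.1 CPM in PEO1 A and at 1.91, 4.59 and 3.73 CPM in PEO4 A, 25.3-fold lower in PEO4 by the fit (log2 fold change -4.66, SE 0.276, adjusted p = 3.88e-06). In untreated cells of the B pair it was at 211, 203 and 225 CPM in PEO1 and at 28.6, 38.9 and 13.7 CPM in PEO4, which was 7.9-fold lower (log2 fold change -2.98, SE 0.242, adjusted p = 1.17e-07). In neither pair did the lines overlap. After PDS it was at 134, 151 and 116 CPM at 2 h and at 131, 133 and 128 CPM at 6 h in PEO4 B, which was 4.95-fold and 4.84-fold above untreated cells (log2 fold change 2.31, SE 0.238, adjusted p = 1.72e-06, and 2.27, SE 0.238, adjusted p = 1.53e-06). In PEO1 B it was at 314, 312 and 315 CPM at 2 h and at 359, 351 and 366 CPM at 6 h, all above the untreated libraries, with log2 fold changes of 0.56 (adjusted p = 0.0431) and 0.75 (adjusted p = 0.00985), below the fold threshold. The change in PEO4 B exceeded that in PEO1 B by 1.75 at 2 h (SE 0.317, adjusted p = 0.000796) and by 1.52 at 6 h (SE 0.317, adjusted p = 0.00151) on the log2 scale. The lines still differed after PDS, by log2 fold changes of -1.23 at 2 h and -1.46 at 6 h. Without replicate 3 of untreated PEO4 B the difference between untreated lines was -2.66, the changes in PEO4 B were 1.99 and 1.96, and the differences in response were 1.43 and 1.21, all of them still called.

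DUSP5 (chromosome 10, 110497907 to 110511533), a nuclear phosphatase specific to ERK, was not called in any of the 13 comparisons. Its lines overlapped in the A pair (29.1 to 34.7 CPM in PEO1, 19.6 to 37.2 CPM in PEO4) and in untreated cells of the B pair (107 to 133 CPM in PEO1, 121, 85.1 and 53.5 CPM in PEO4). PEO1 B stayed between 114 and 139 CPM after PDS, and PEO4 B was at 100 to 113 CPM at 2 h and at 71.9 to 74.7 CPM at 6 h. The log2 difference from 2 h to 6 h in PEO4 B was -0.52 (adjusted p = 0.0371), and that between the lines at 6 h was -0.88 (adjusted p = 0.00138), with no overlap in either and both under the fold threshold. Against untreated PEO4 B the log2 difference at 6 h was -0.23 (95% interval -0.66 to 0.20), and it was -0.48 (adjusted p = 0.000893) without replicate 3 of the untreated cells.

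DUSP6 (chromosome 12, 89347235 to 89352501), the cytoplasmic ERK phosphatase whose mRNA is often read as a gauge of ERK output, was higher after PDS in PEO4 B. It was at 23.6, 22 and 12.7 CPM in untreated PEO4 B, at 45.9, 41.1 and 49.7 CPM at 2 h and at 38.8, 37.5 and 37.1 CPM at 6 h, with no overlap. The log2 fold change was 1.23 at 2 h (SE 0.14, adjusted p = 8.59e-07) and 0.96 at 6 h (SE 0.141, adjusted p = 1.24e-05), of which the second was under the fold threshold. In PEO1 B it was at 23.9, 24.1 and 23.6 CPM untreated, at 30.9, 31.4 and 31.8 CPM at 2 h and at 29.5, 30.3 and 28.4 CPM at 6 h, again with no overlap but with log2 fold changes of only 0.39 (adjusted p = 0.0251) and 0.30 (adjusted p = 0.0813). The responses of the lines differed by 0.83 at 2 h (adjusted p = 0.00324) and 0.66 at 6 h (adjusted p = 0.0118) on the log2 scale, short of the fold threshold. Without replicate 3 of untreated PEO4 B the log2 fold change at 2 h was 1.0 (adjusted p = 1.89e-11), just at the fold threshold and no longer called, and that at 6 h was 0.73 (adjusted p = 4.19e-09). In the A pair DUSP6 was at 35.9 to 42.9 CPM in PEO1 and at 24.4 to 27.5 CPM in PEO4 (log2 difference -0.60, adjusted p = 0.000157). The annotation holds a readthrough gene, POC1B-DUSP6, that overlaps DUSP6, so its counts may be shared.

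DUSP8 and DUSP10 act mainly on JNK and p38. DUSP8 (chromosome 11, 1554051 to 1572848) had between 4 and 60 counts per library, the fewest of the members, and overlaps KRTAP5-AS1 and LOC124902608. In PEO1 B its level was 1.1, 1.4 and 1.62 CPM untreated, 0.504, 0.414 and 0.567 CPM at 2 h and 0.732, 0.667 and 0.646 CPM at 6 h. Untreated PEO1 B was thus above every treated library of that line, with log2 fold changes of -1.48 at 2 h (SE 0.455, adjusted p = 0.00931) and -1.01 at 6 h (SE 0.433, adjusted p = 0.0546). In PEO4 B it was at 1.04, 0.753 and 0.369 CPM untreated, at 0.861, 1.7 and 0.288 CPM at 2 h and at 0.191, 0.488 and 0.239 CPM at 6 h, so that untreated cells overlapped both treated groups. Its calls in PEO4 B were those from untreated to 6 h (log2 fold change -1.27, adjusted p = 0.0452) and from 2 h to 6 h (-1.63, adjusted p = 0.00681). The first was kept in only 2 of 6 fits that each left out 1 library, with log2 fold changes from -1.74 to -0.88. The second rested on replicate 2 at 2 h, the library with 60 counts, without which the log2 fold change was -0.90 (adjusted p = 0.108). Without that library the difference in response between the lines at 2 h was 1.11 (adjusted p = 0.139) in place of 1.84 (adjusted p = 0.0296), and that from 2 h to 6 h was -1.37 (adjusted p = 0.0768) in place of -2.10 (adjusted p = 0.0168). The call between the lines at 6 h (-1.18, adjusted p = 0.0465) was kept in 1 of 6 such fits. In the A pair DUSP8 had 4 to 30 counts per library, and the lines overlapped.

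DUSP10 (chromosome 1, 221701424 to 221742089) differed between the lines in opposite directions in the A and B pairs. It was at 7.72, 3.34 and 4.55 CPM in PEO1 A and at 1.82, 3.01 and 2.57 CPM in PEO4 A, a log2 fold change of -1.10 (SE 0.306, adjusted p = 0.00857). In untreated cells of the B pair it was at 2.11, 1.86 and 2.68 CPM in PEO1 and at 4.63, 5.68 and 4.56 CPM in PEO4, a log2 fold change of 1.16 (SE 0.164, adjusted p = 8.5e-07). The libraries of the lines overlapped in neither pair, but the call in the A pair was lost without replicate 1 of PEO1 A (-0.70) or replicate 1 of PEO4 A (-0.90). The pairs differ in the PEO1 line, in their tables and in the medium, and no test was made across them. The paper reports added sodium pyruvate for PEO1 cells without BRCA2 function and their PEO4 cells, and not for the other pair. After PDS DUSP10 was at 4.09, 4.32 and 4.18 CPM at 2 h and at 3.85, 3.64 and 4.73 CPM at 6 h in PEO1 B, above every untreated library (log2 fold changes 0.92, adjusted p = 2.96e-05, and 0.88, adjusted p = 5.43e-05). In PEO4 B it was at 8.64, 9 and 7.11 CPM at 2 h (log2 fold change 0.74, adjusted p = 3.4e-05) and at 5.89, 6.1 and 5.81 CPM at 6 h (0.26, adjusted p = 0.0904). These differences were all under the fold threshold, and in PEO1 B they passed it without replicate 3 of the untreated cells (1.09 and 1.05).

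SPRY2 and SPRY4 encode Sprouty proteins, and after PDS in PEO4 B their levels moved in opposite directions. SPRY2 (chromosome 13, 80335976 to 80341126) was at 14.3, 8.79 and 13.5 CPM untreated, at 18.3, 18 and 17.5 CPM at 2 h and at 9.9, 8.94 and 9.43 CPM at 6 h. SPRY4 (chromosome 5, 142310430 to 142325021) was at 7.97, 6.13 and 9.49 CPM untreated, at 5.44, 4.84 and 4.99 CPM at 2 h and at 9.13, 9.46 and 8.32 CPM at 6 h. The 2 h libraries of both genes lay outside the range of the others. SPRY2 had a log2 fold change of 0.55 at 2 h (adjusted p = 0.000129) and of -0.93 from 2 h to 6 h (adjusted p = 1.01e-07), and SPRY4 of -0.63 (adjusted p = 0.000168) and 0.82 (adjusted p = 3.47e-06). The comparison of 6 h with 2 h is among treated libraries, whose depth and ribosomal RNA shares were alike. None of these passed the fold threshold. PEO1 B showed no such course, with SPRY2 at 10.7 to 11.7 CPM and SPRY4 at 13.2 to 17.9 CPM after PDS, and the change from 2 h to 6 h differed between the lines by -0.94 for SPRY2 (adjusted p = 3.56e-05) and by 0.70 for SPRY4 (adjusted p = 0.00118) on the log2 scale.

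Between the lines, SPRY4 was at 15.2, 16.6 and 16.9 CPM in untreated PEO1 B, above all untreated PEO4 B libraries, with a log2 fold change of -1.04 (SE 0.123, adjusted p = 4.83e-08). That of 2 h was -1.58 (SE 0.119, adjusted p = 1.13e-11) and that of 6 h -0.88 (SE 0.112, adjusted p = 1.85e-07). The call in untreated cells was lost without replicate 2 of PEO4 B (-0.90). In the A pair SPRY4 was at 6.99 to 7.79 CPM in PEO1 and at 4.08 to 6.07 CPM in PEO4 (-0.52, adjusted p = 0.0176). SPRY2 was higher in PEO4 A, at 17.1, 13.1 and 14.1 CPM, than in PEO1 A, at 8.47, 7.87 and 7.27 CPM, with a log2 difference of 0.91 (adjusted p = 7.86e-05), under the fold threshold. In untreated cells of the B pair its lines overlapped (log2 difference 0.38, 95% interval 0.13 to 0.63). SPRY4 overlaps the non-coding RNA gene SPRY4-IT1, and its counts may be shared.

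SPRED1 and SPRED2 encode the SPRED proteins and had no call in any comparison. SPRED1 (chromosome 15, 38252836 to 38357249) was at 140, 155 and 146 CPM in PEO1 A and at 84.3, 90.3 and 90.6 CPM in PEO4 A (log2 difference -0.73, adjusted p = 1.94e-06). SPRED2 (chromosome 2, 65307175 to 65432599) lay in the other direction, at 82.3, 84.9 and 77.8 CPM in PEO1 A and at 102, 101 and 95.2 CPM in PEO4 A (0.29, adjusted p = 0.00351). The same opposite signs were seen in untreated cells of the B pair, where SPRED1 differed by -0.43 (adjusted p = 8.8e-08) and SPRED2 by 0.65 (adjusted p = 2.56e-09), with no overlap of the lines in any of the 4. After PDS SPRED2 was at 62.4 to 68.1 CPM at 2 h and at 65.3 to 67.9 CPM at 6 h in PEO4 B, below its untreated libraries at 94.6, 96.6 and 110 CPM, with log2 fold changes of -0.61 (adjusted p = 8.15e-09) and -0.59 (adjusted p = 1.16e-08). In PEO1 B the log2 fold changes of SPRED2 were -0.29 (adjusted p = 0.000505) and -0.38 (adjusted p = 2.52e-05), also with no overlap. SPRED1 stayed within log2 fold changes of -0.21 and 0.23 of untreated cells in both lines. All these differences were under the fold threshold.

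The change after PDS was compared between the lines by the interaction of line and treatment. At 2 h 2 of the 10 genes were called, DUSP4 and DUSP8, both with the more positive change in PEO4 B (11% of all tested genes were called). At 6 h 2 were called, DUSP4 with the more positive and DUSP1 with the more negative change in PEO4 B (14.8% of all genes), and from 2 h to 6 h 1 was called, DUSP8 (8.88% of all genes). With the fold threshold dropped, 6, 6 and 3 members passed, against 37.3%, 47.4% and 43.3% of all genes. The difference for DUSP1 was -1.69 at 6 h (SE 0.505, adjusted p = 0.0146). At 2 h it was -0.63 (adjusted p = 0.353) and became -1.02 (adjusted p = 0.00617) without replicate 3 of untreated PEO4 B. The median difference over the members was 0.24, -0.23 and -0.33, against 0.015, 0.006 and -0.037 over all genes. The calls of DUSP4 and DUSP1 were kept in all 12 fits that each left out 1 library, and that of DUSP8 in 6 of 12 at 2 h and 10 of 12 from 2 h to 6 h.

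Of 7 other genes of these families, 6 were tested in each table. In the B pair 2 were called after PDS in PEO1 B at each time, both lower, and in PEO4 B 2 were called at 2 h and 3 at 6 h, all lower. Of all tested genes, 7.57% and 8.13% were called in PEO1 B and 17.4% and 22.6% in PEO4 B at these times. Most of those were lower as well, 1087 of 1288 and 1163 of 1383 in PEO1 B and 1870 of 2959 and 2782 of 3848 in PEO4 B. SPRY1, a Sprouty gene, was called lower in all 4 comparisons. Its mean fell from 1.17 to 0.184 and 0.204 CPM in PEO1 B, with 3 to 11 counts per treated library, and from 6.43 to 2.09 and 1.09 CPM in PEO4 B. DUSP2, a nuclear phosphatase, was called lower in PEO1 B (log2 fold change -2.03 and -1.37, on 10 to 28 counts per treated library), and its values in PEO4 B were -0.38 and -0.29. DUSP9, a cytoplasmic ERK phosphatase, was called lower in PEO4 B (-2.12 and -2.02), where its mean was 19.2 CPM untreated and 4.43 and 4.76 CPM after PDS. SPRED3 was called lower in PEO4 B at 6 h (-2.24, adjusted p = 3.44e-05), on 19, 13 and 17 counts untreated and 9, 7 and 1 at 6 h. Counts this low limit all its values below, and fits with a library left out were not made for these other genes. DUSP7, a cytoplasmic ERK phosphatase, was at 51.4, 60.4 and 53.2 CPM in untreated PEO4 B. It was at 34.4, 30.2 and 29.3 CPM at 2 h and at 101, 104 and 103 CPM at 6 h there, and was not called against untreated cells at either time. From 2 h to 6 h its log2 fold change was 1.72 in PEO4 B (SE 0.0703, adjusted p = 6.19e-15) and 0.59 in PEO1 B. SPRY1 was higher in PEO4 than in PEO1 in both pairs (log2 fold change 1.79 in the A pair and 2.48 in untreated cells of the B pair). DUSP2 and DUSP9 were called higher in untreated PEO4 B (1.79 and 1.31), and DUSP2 and SPRY1 stayed higher at 2 h (3.43 and 3.48) and 6 h (2.87 and 2.40), where SPRED3 was lower at 6 h (-1.08). The response of the lines differed for DUSP2 (1.64 at 2 h and 1.09 at 6 h), DUSP9 (-1.59 and -1.07), SPRED3 (-1.40 at 6 h) and DUSP7 (1.12 from 2 h to 6 h), and SPRED3 was called lower in PEO4 B from 2 h to 6 h (-1.53).

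**Figure D4:**
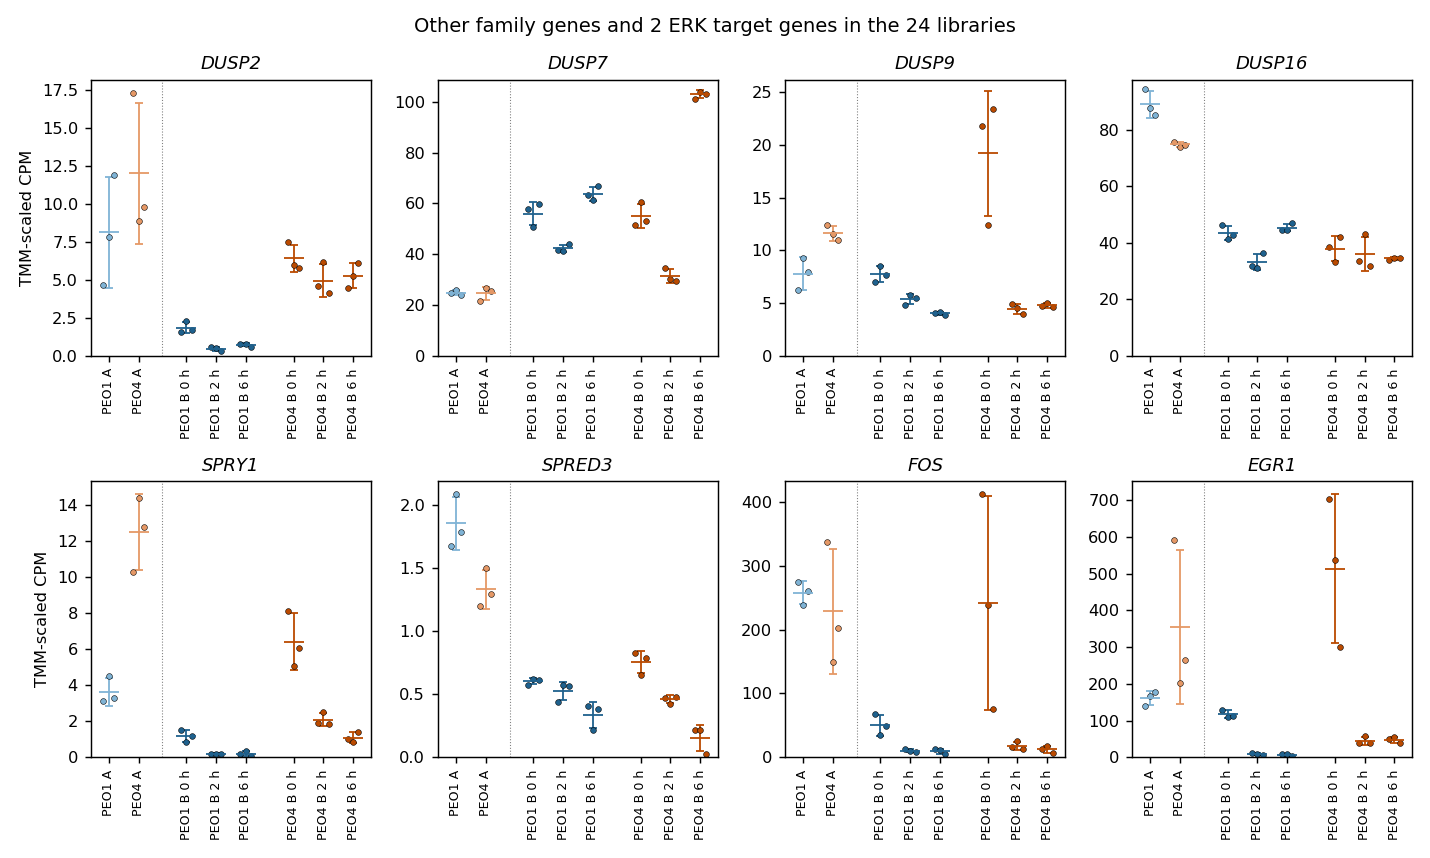
Levels (TMM-scaled CPM, linear axis from 0) of 6 other DUSP, SPRY and SPRED genes and of FOS and EGR1 in the 24 libraries, with points for replicates 1 to 3 from left to right, bars for the mean ± SD and a dotted line between the separately scaled pairs. SPRY1, FOS and EGR1 lie lower after PDS in both B lines, and DUSP7 in PEO4 B lies near 103 CPM at 6 h against 31.3 CPM at 2 h and 55 CPM untreated.

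Of 15 transcription targets of ERK, 14 were tested in the B pair. In PEO1 B 3 were called after PDS at each time, all lower, and in PEO4 B 2 were higher and 5 lower at 2 h and 1 was higher and 5 lower at 6 h. These were 21.4% of the tested targets at each time in PEO1 B, against 7.57% and 8.13% of all genes. In PEO4 B they were 50% and 42.9%, against 17.4% and 22.6% of all genes. This list was chosen with earlier results of these data known, so these shares describe it and carry no test. FOS and EGR1, immediate-early genes, were called lower in all 4 comparisons. FOS was at 67.1, 34.6 and 49.4 CPM in untreated PEO1 B and at 412, 238 and 75.8 CPM in untreated PEO4 B, and at 5.25 to 25.3 CPM in the 12 treated libraries. EGR1 had log2 fold changes of -3.76 and -4.01 in PEO1 B and of -3.54 and -3.41 in PEO4 B. FOS and EGR1, like DUSP1, were lowest in replicate 3 among the untreated PEO4 B libraries. FOSL1, which encodes a longer-lived AP-1 subunit, was called higher in PEO4 B (1.51 and 2.30), and MYC was called higher there at 2 h (1.02). In untreated cells PHLDA1 was higher in PEO4 in both pairs (2.01 and 2.27). Of 27 genes of the ERK cascade, 26 were tested in each table. None was called after PDS in PEO1 B by edgeR, although 15 at 2 h and 15 at 6 h had an adjusted p under 0.05, and 4 were called in PEO4 B at each time, all lower. These 4 were 15.4% of the tested cascade genes, against 17.4% and 22.6% of all genes at 2 h and 6 h. With the adjusted p alone, 52.6% and 53.0% of all genes passed in PEO1 B. The growth factor receptor genes EGFR and FGFR3 differed between the lines in both pairs. EGFR was lower in PEO4 (log2 fold change -2.43 in the A pair and -2.30 in untreated cells of the B pair) and FGFR3 higher (5.51 and 3.41). Of 15 genes of the JNK and p38 cascades, 14 were tested in the B pair. None was called after PDS in PEO1 B or at 2 h in PEO4 B by edgeR, with 5, 6 and 9 under an adjusted p of 0.05, where 52.6%, 53.0% and 65.3% of all genes were. In PEO4 B at 6 h 1 was called lower, 7.14% of the tested genes of these cascades against 22.6% of all genes. MAPK11, a p38 kinase gene, was lower in PEO4 B than in PEO1 B at 0 h, 2 h and 6 h (-3.47, -2.89 and -3.20), and MAP2K6 fell in PEO4 B from 2 h to 6 h (-1.19), as did FGFR3 (-1.31). FGFR1 was lower in PEO4 in the A pair (-2.90) and in the B pair at 0 h, 2 h and 6 h (-1.49, -3.40 and -2.79). Among the ERK targets, ETV1 (2.33, 1.86 and 1.41), EGR1 (2.13, 2.35 and 2.73) and EPHA4 (1.94, 1.60 and 1.92) were higher in PEO4 B than in PEO1 B at 0 h, 2 h and 6 h. The response of the lines differed most in these lists for LIF (1.58), MAPK12 (1.43), PHLDA1 (-2.19) and FGFR1 (-1.91) at 2 h, for FOSL1 (1.69), IER3 (1.65), FGFR3 (-2.74) and PHLDA1 (-1.83) at 6 h, and for IER3 (1.25) and FGFR3 (-1.13) from 2 h to 6 h.

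Across the 18 libraries of the B pair, the gene whose log2 CPM followed that of DUSP1 most closely among all tested genes was FOS (Pearson's r = 0.961), followed by FOSB (0.948). MB21D2 (0.99) and RHEB (0.987) followed DUSP4, TMCC3 (0.966) and PRDX3 (0.962) followed DUSP6, and RND3 (0.964) and PRSS22 (0.937) followed SPRY2. PRPF6 (0.982) and MRPS18A (0.968) followed DUSP10. For SPRY4 they were SLC7A6 (0.986) and NUP50 (0.984), for SPRED1 CARNMT1 (0.953) and FANCB (0.951), and for SPRED2 EFR3A (0.984) and KANSL1 (0.98). The closest genes to DUSP5 were SIGLEC15 (0.917) and PLK2 (0.87), and those to DUSP8 were DM1-AS (0.847) and FOXA1 (0.821), with lower values than for the other members. Between members, DUSP4 and SPRED2 ran opposite to each other (-0.97), SPRY4 and SPRED1 ran together (0.821), and SPRY2 and SPRY4 had an r of -0.585. The points are 3 replicates of each of 6 conditions and share their lines, treatment and depth, so these values describe the libraries and carry no test.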

How the data were processed

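RNA was extracted with DNase I digestion, and polyadenylated RNA was sequenced. The authors trimmed reads with fastp, checked them with FastQC, aligned them to hg38 with STAR and counted them with featureCounts. Versions, annotation and strand setting are not given in the sources used here, so counts of overlapping genes are uncertain. The deposited values are whole-number counts per gene, without normalization. All columns were used, and 2 lines and 1 line without readable counts were left out of the tables of 6 and 18 libraries. No line without a gene name remained.

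The count tests were run with edgeR 4.0.16 under R 4.3.3. Low genes were removed with filterByExpr (minimum count 10, minimum total 15). After TMM scaling, each table was fitted on its own by the robust quasi-likelihood method, with 1 coefficient for each condition. Common dispersions were 0.0129 (6 libraries) and 0.00502 (18 libraries). To be called, a gene needed an adjusted p below 0.05 and a log2 difference of more than 1 in size. DESeq2 1.42.0, other scalings, no filter, other thresholds, a replicate term, only the groups compared, and each library left out were tried. Replicates differed by more than sampling noise (chi-square per degree of freedom at least 2.13). Log2 CPM for correlations used a prior count of 2. Exon lengths are from GENCODE release 44 and coordinates and promoters from RefSeq (GRCh38.p14).

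The members and the other lists were chosen with earlier results of these data known. The rule for names took all members, every called gene of the same families, and the 2 called genes of the other lists with the largest log2 fold change each way. The 2 most alike genes by Pearson's r were named for each member. G4 maps were not used here.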

Additional observations from a re-analysis of the deposited data

Results flagged for a closer look

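The change after PDS differed between PEO4 B and PEO1 B, by edgeR's test of the interaction term, adjusted over all genes, in 5 results. DUSP4 had the more positive log2 change in PEO4 B, by 1.75 at 2 h and by 1.52 at 6 h, and each PEO4 B library after PDS lay above each untreated one. DUSP1 had the more negative change in PEO4 B at 6 h, by -1.69, from an untreated level of 121 to 424 CPM in PEO4 B against 77.2 to 122 CPM in PEO1 B. DUSP8 differed by 1.84 at 2 h and by -2.10 from 2 h to 6 h, on 4 to 60 counts per library, and both calls were lost without replicate 2 of PEO4 B at 2 h (1.11 and -1.37). No outlier test was made within groups of 3 libraries, and fits with each library left out in turn are described below.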

How the results depend on the processing

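No member's log2 fold change that was called turned its direction under any alternative. Of the members' calls, DESeq2's Wald test and DESeq2's size factors in edgeR changed none of 130. With an adjusted p alone, the members past the threshold were 7 in the A pair, 8 between the B lines at 0 h, at 2 h and at 6 h, 7 and 4 in PEO1 B at 2 h and 6 h, 7 at both times in PEO4 B and 7 from 2 h to 6 h there, and 6, 6 and 3 for the differences in response at 2 h, at 6 h and from 2 h to 6 h. Between 37.3% and 72.9% of all tested genes passed that threshold in these comparisons. Library totals and upper-quartile scaling gave 2 calls in PEO1 B at 6 h and 2 in PEO4 B from 2 h to 6 h, and a fit of only the groups compared gave 2 in PEO1 B at 6 h. Without a filter on low counts 1 was called between the lines at 6 h, since DUSP8 was lost there (adjusted p = 0.0583), as it was in PEO4 B at 6 h (adjusted p = 0.0618).

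With each library left out in turn, the members called ranged from 1 to 2 in the A pair, from 3 to 5 between untreated B lines, from 2 to 5 at 2 h and from 1 to 2 at 6 h. They ranged from 2 to 3 and from 0 to 2 in PEO1 B at 2 h and 6 h, from 2 to 3 at both times in PEO4 B and from 0 to 2 there from 2 h to 6 h, and from 1 to 2, 2 to 2 and 0 to 1 for the differences in response. The 5 calls at 2 h between lines were reached without replicate 3 of PEO4 B at 2 h, where DUSP1, DUSP8 and DUSP10 had log2 fold changes of 1.07, 1.36 and 1.07.

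Replicate numbers are shared by the conditions, but neither the labels nor the study's methods pair the samples by them, and the main fit used no pairing. Correlations of same-numbered deviations ran from -0.0899 to 0.101 in the A pair and from -0.357 to 0.622 in the B pair. The highest was between replicates 3 of PEO1 B at 2 h and 6 h, and these values do not settle whether samples were paired. With the replicate block, 2 members were called in PEO1 B at 6 h, DUSP8 being added (log2 fold change -1.02, adjusted p = 0.0441), and no other call changed. Depth limits DUSP8 most, and the cause of its changes between settings was not tested.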
